A study of Danio rerio with 18 samples.

Results

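The macrophage and microglia genes described here are 10 genes that mark macrophages or the resident macrophages of the brain, measured by RNA sequencing of whole zebrafish (Danio rerio) tumours. They were chosen by name: csf1ra, csf1rb, spi1b, mpeg1, marco, slc7a7, p2ry12 and apoeb. The name mpeg1 belongs to 3 gene identifiers in the table, which makes 10 genes of the 27057 counted. The 3 are called copy A (ENSDARG00000043093), copy B (ENSDARG00000055290) and copy C (ENSDARG00000078569), and reads of such copies may be shared or misassigned between them. The gene spi1b (ENSDARG00000000767) was matched by its name without the final letter. Of the 18 tumours, 12 carried the plasmid sox10-BRAFV600E and 6 carried mitfa-BRAFV600E. Both plasmids express an activated BRAF kinase. One drives it from the sox10 promoter, active in neural crest cells and glia, and the other from the mitfa promoter, active in the melanocyte lineage. All tumours arose in Tu fish of a p53-/- background that had been injected with the plasmid as embryos and raised to adulthood, so the plasmid is expected in some of the cells of each fish and not in others. They are called sox10 tumours and mitfa tumours below. The question asked of them was whether sox10 tumours hold microglia-like cells and mitfa tumours other macrophages.

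Macrophages develop under the transcription factor Spi1 (PU.1) and need signals through the receptor Csf1r, whose ligands are Csf1 and Il34. Those that enter the brain become microglia. Microglia carry the purine receptor P2ry12 and, in zebrafish, apolipoprotein Eb and the amino acid transporter Slc7a7, while the scavenger receptor Marco and the pore-forming protein Mpeg1 are used as markers of macrophages at large. None of these genes is limited to the cells it marks. In zebrafish csf1ra also acts in xanthophores, the yellow pigment cells, and apolipoprotein E is made by glia as well.

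The tumours had 14973777 to 21191902 reads assigned to genes, and 3 reads, taken here as the limit of what a count of 0 allows, correspond to a CPM, the read count scaled to 1000000 reads per library, of 0.142 to 0.200. This limit leaves out the TMM scaling factors that the levels below carry, so it is approximate on their scale. The labels call all tumours melanoma. The 8 melanocyte genes listed summed to 11.5 to 120 CPM in sox10 tumours and 4127 to 17979 CPM in mitfa tumours, and the 14 glial genes listed summed to 8626 to 50835 CPM in sox10 tumours and 96.7 to 492 CPM in mitfa tumours. The melanocyte genes thus went with the melanoma label in mitfa tumours and not in sox10 tumours, where the glial genes were high. Sums of so few genes do not decide the type of a tumour. Sox10 tumours 9 and 10 differed by 2.42 times the sampling noise, against 16.5 times or more for every other pair within a group. Mitfa tumours 1 and 5 had 57.7 and 80.8 CPM of the glial gene OLIG2, against at most 1.24 CPM in the other 4. Library numbers run by group, so a batch that follows the plasmid and the plasmid itself cannot be told apart. The labels do not say whether tumours came from separate fish, so the p-values reflect only how these samples varied.

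All 10 genes passed the filter on low counts. Between the groups, 2 of them were higher in sox10 tumours (apoeb and csf1rb), 3 were lower (csf1ra and mpeg1 copies A and B) and 5 did not pass the test (edgeR's quasi-likelihood test, adjusted p under 0.05 over 18731 genes). Of all genes tested 43.9% passed, 21.5% higher and 22.4% lower in sox10 tumours, so the share among the 10 is near the background. The same shares are the background for every list count below that comes from this fit. Fits with a covariate or a replicate block called fewer of all genes, as given below. The median log2 fold change of the 10 was -0.64 (sox10 minus mitfa), and that of all genes tested was -0.03. No member separated the groups without overlap, while 11.7% of all genes tested did (6.84% with all sox10 tumours above all mitfa tumours and 4.89% below). In whole tumours, fewer cells of a type and less RNA per cell cannot be told apart.

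**Figure D1:**
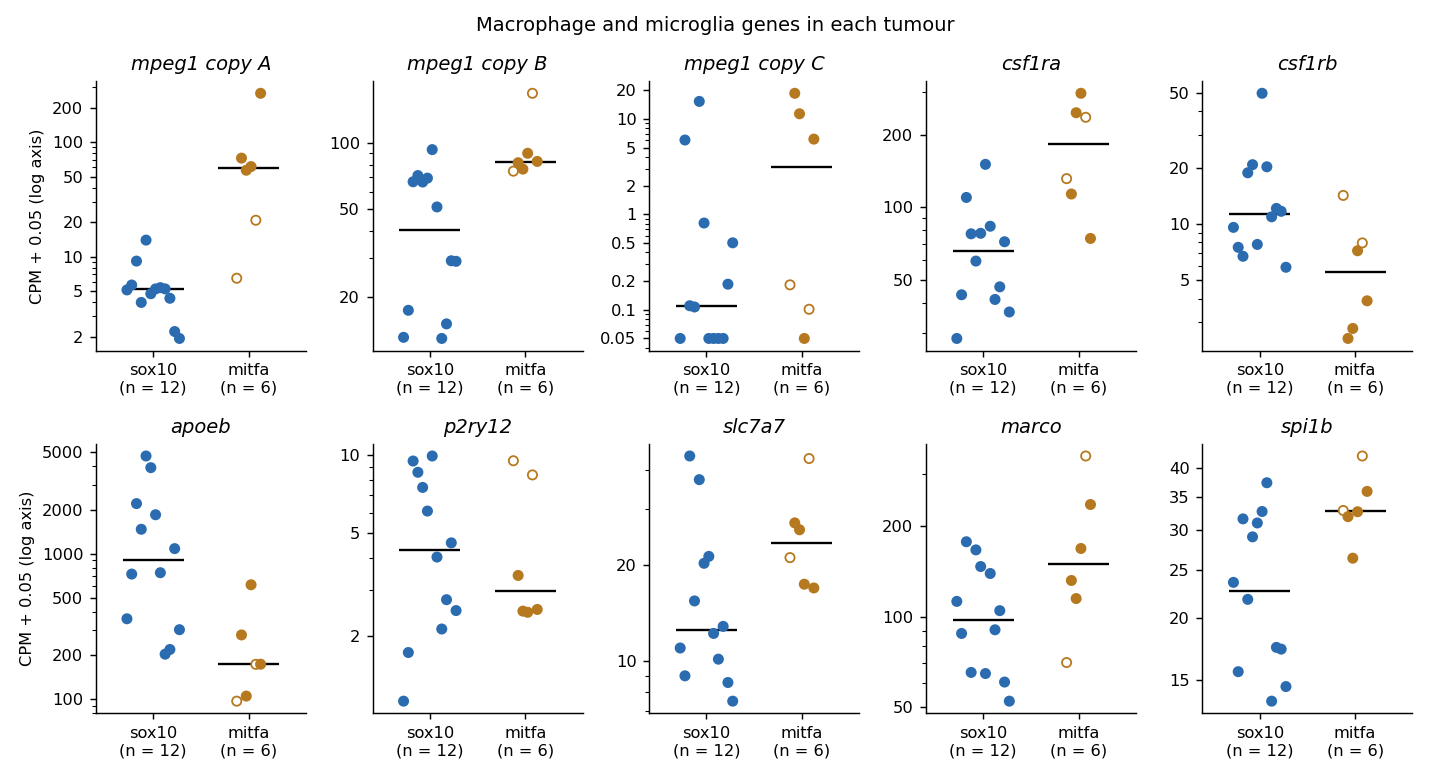
Level of each of the 10 genes in every tumour, in CPM on a log axis with 0.05 added, sox10 tumours (n = 12) left of mitfa tumours (n = 6). Black bars are group medians and open symbols are mitfa tumours 1 and 5. The groups overlap for every gene. apoeb and csf1rb sit higher in sox10 tumours, csf1ra and mpeg1 copies A and B sit lower there, and the p2ry12 ranges overlap (1.07 to 9.87 CPM in sox10 tumours and 2.42 to 9.46 CPM in mitfa tumours).

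Of the receptors, csf1ra, the receptor for Csf1 and Il34, was lower in sox10 tumours and its duplicate csf1rb was higher. csf1ra had a lowest, median and highest level of 28.4, 65.7 and 150 CPM in sox10 tumours, against 74.0, 183 and 297 CPM in mitfa tumours. Every sox10 tumour was below the mitfa median, and 7 of 12 were below the lowest mitfa tumour. The fitted log2 fold change was -1.41 ± 0.33 (SE), a 2.66-fold lower level (adjusted p = 0.00196, edgeR). It stayed between -1.59 and -1.22 when any one tumour was left out.

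csf1rb, the second copy of that receptor, which in zebrafish is needed together with csf1ra for microglia, had 5.82, 11.3 and 49.8 CPM (lowest, median, highest) in sox10 tumours, against 2.40, 5.49 and 14.2 CPM in mitfa tumours. All 12 sox10 tumours were above the mitfa median, but only 4 were above the highest mitfa tumour. The highest level was that of sox10 tumour 7. For csf1rb the log2 fold change was 1.25 ± 0.48 (adjusted p = 0.0433, edgeR). This call was lost in 9 of the 18 fits without one tumour, those without sox10 tumour 4, 5, 7 or 8 or mitfa tumour 2, 3, 4, 5 or 6 (log2 fold change 0.91 to 1.32, adjusted p 0.0538 to 0.0969).

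The opposite shifts of the receptor copies were compared within tumours as the log2 ratio of csf1rb to csf1ra, in which gene length cancels between tumours. It averaged -2.31 ± 0.76 in sox10 tumours and -4.93 ± 1.12 in mitfa tumours (SD, n = 12 and n = 6). The difference of 2.63 is a 6.17-fold higher ratio (adjusted p = 0.000646, two-sided exact permutation test over 18564 splits, adjusted over 4 ratios). Between groups csf1rb had a log2 fold change of 1.25 and csf1ra one of -1.41. The ratio restates these from the same values and is no separate support for either call. Of the 12 sox10 tumours, 10 were above the highest mitfa tumour. The difference stayed between 2.32 and 2.97 without any one tumour.

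Levels of xanthophore genes moved with csf1ra between the groups. The 10 xanthophore genes listed summed to 10.1 to 45.1 CPM in sox10 tumours and 67.4 to 944 CPM in mitfa tumours. Of the 7 tested, 5 were lower in sox10 tumours, none was higher, and the median log2 fold change was -3.60. Among them slc2a11b, needed for xanthophore differentiation in fish, had 0.203 to 4.04 CPM in sox10 tumours and 4.76 to 545 CPM in mitfa tumours (log2 fold change -8.01, adjusted p = 1.06e-07, and -8.62 without sox10 tumour 1), BCO1, a carotenoid-cleaving enzyme, had -3.88 (adjusted p = 5.80e-05, and -2.85 without mitfa tumour 3) and aox5, an aldehyde oxidase gene used as a xanthophore marker, -3.95 (adjusted p = 0.000334). Within the 12 sox10 tumours csf1ra and slc2a11b had a Pearson r of -0.67 (adjusted p = 0.0375, permutation; Spearman rho -0.59, adjusted p = 0.107). Without the 2 tumours farthest from the median, r was -0.38 (adjusted p = 0.520), so that relation rests on those tumours. The relation was not tested within mitfa tumours. In mitfa tumours 1 to 6 the xanthophore genes listed summed to 67.4, 944, 138, 343, 189 and 498 CPM. csf1ra had 131, 113, 246, 297, 236 and 74.0 CPM in the same tumours. The part of xanthophores in the difference of csf1ra was not tested.

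No ligand gene of Csf1r was called higher in sox10 tumours. il34, which draws macrophages into the zebrafish brain, had 4.94 to 34.8 CPM in sox10 tumours and 19.4 to 28.8 CPM in mitfa tumours (log2 fold change -0.97 ± 0.35, adjusted p = 0.0305). That call was lost without mitfa tumour 2, 3 or 5 (adjusted p 0.0525 to 0.0639). csf1a had at most 2.04 CPM in sox10 tumours, and in mitfa tumours a median of 1.15 CPM and a highest level of 39.7 CPM in tumour 3. Its log2 fold change of -2.97 (adjusted p = 0.00454) was -0.39 (adjusted p = 0.600) without that tumour. csf1b had 0.135 to 3.28 CPM in sox10 tumours and 0.132 to 4.97 CPM in mitfa tumours and was not called (log2 fold change -0.94, adjusted p = 0.287). Of 9 genes listed for the receptor's ligands and signalling, 6 were lower and 1 was higher (22.4% and 21.5% of all genes tested). The number lower was 3 without mitfa tumour 3, 2 with a covariate for reads outside genes and 1 with one for a leukocyte score. PIK3CG, a kinase subunit of leukocytes, was lower (log2 fold change -1.03, adjusted p = 0.00361), a call lost with the leukocyte score (adjusted p = 0.143), and CBL, a ubiquitin ligase that removes activated receptors and is not limited to macrophages, was higher (2.06, adjusted p = 0.000461).

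The transcription factor gene spi1b had the narrowest spread of the 10. It had 13.5, 22.6 and 37.3 CPM (lowest, median, highest) in sox10 tumours, against 26.3, 32.7 and 42.2 CPM in mitfa tumours. Of the 12 sox10 tumours, 11 were below the mitfa median and 7 below the lowest mitfa tumour. The log2 fold change of -0.50 ± 0.22 did not pass (adjusted p = 0.0758, edgeR), but did without sox10 tumour 8 (-0.58, adjusted p = 0.0386). Its duplicate spi1a was lower in sox10 tumours (log2 fold change -0.79, adjusted p = 0.00291). Of 10 myeloid transcription factor genes listed, 6 were lower, none was higher and the median log2 fold change was -1.14. Of all genes tested 22.4% were lower. The number lower was 3 with either covariate. The smallest adjusted p belonged to RUNX3 (log2 fold change -5.22, adjusted p = 9.65e-06, and -4.57 without mitfa tumour 3), which also acts in T cells. In mitfa tumours 1 to 6 it had 2.25, 177, 636, 272, 4.09 and 243 CPM, against 1.42 to 10.2 CPM in sox10 tumours. Mitfa tumours 1 and 5 thus lay within the sox10 range. RUNX3 was followed by TFEC (-2.29, adjusted p = 5.83e-05), a relative of mitfa that pigment cells also express, and CEBPB (-1.86, adjusted p = 0.00206), a factor of inflammatory gene expression.

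The 3 mpeg1 copies, which encode perforin-2, a pore-forming protein of macrophages, differed in how far they moved. Copy A had 1.88, 5.11 and 13.9 CPM (lowest, median, highest) in sox10 tumours. In mitfa tumours 1 to 6 it had 6.42, 72.3, 56.7, 61.0, 20.7 and 267 CPM. Of the 12 sox10 tumours, 10 were below the lowest mitfa tumour, which was tumour 1, and 5 of 6 mitfa tumours were above the highest sox10 tumour. The log2 fold change was -3.87 ± 0.52 (adjusted p = 8.53e-06, edgeR), a 14.6-fold lower level. It lay between -4.11 and -3.01 without any one tumour, the smallest size being that without mitfa tumour 6.

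Copy B had 12.9, 40.2 and 93.6 CPM in sox10 tumours, against 74.6, 82.1 and 169 CPM in mitfa tumours. Of the 12 sox10 tumours, 11 were below the lowest mitfa tumour, and the remaining one, tumour 7, was above 5 of the 6. The log2 fold change was -1.10 ± 0.40 (adjusted p = 0.0334, edgeR). The call was lost without mitfa tumour 5 (-0.86, adjusted p = 0.108), without mitfa tumours 1 and 5 (-0.89, adjusted p = 0.140) and without sox10 tumour 11 (-1.05, adjusted p = 0.0502). Copy C had 0 to 15.2 CPM in sox10 tumours, 5 of which had no read of it, and 0 to 18.5 CPM in mitfa tumours, of which 1 had none. It was not called (log2 fold change -1.68 ± 1.42, adjusted p = 0.355).

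The scavenger receptor gene marco, whose product binds bacteria and debris, had 52.3, 97.6 and 178 CPM (lowest, median, highest) in sox10 tumours, against 70.3, 150 and 343 CPM in mitfa tumours. The groups overlapped widely, with 10 of 12 sox10 tumours below the mitfa median. Its log2 fold change of -0.75 ± 0.31 missed the threshold (adjusted p = 0.0589, edgeR). It passed with DESeq2 (adjusted p = 0.0466), and without sox10 tumour 3, 5 or 6 or mitfa tumour 1 or 3 (-0.91 to -0.80, adjusted p 0.0219 to 0.0496).

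slc7a7, a transporter of cationic amino acids that zebrafish microglia need to form, was also not called. It had 7.44, 12.5 and 44.1 CPM in sox10 tumours, against 16.9, 23.5 and 43.3 CPM in mitfa tumours. Of the 12 sox10 tumours, 8 were below the lowest mitfa tumour, and tumour 3 was above the highest. Its log2 fold change was -0.54 ± 0.36 (adjusted p = 0.241). The log2 ratio of slc7a7 to marco, a microglia gene against a general macrophage gene, averaged -2.72 ± 0.61 in sox10 tumours and -2.70 ± 0.78 in mitfa tumours (SD, n = 12 and n = 6; p = 0.963, exact permutation). The difference of -0.02 lay between -0.23 and 0.18 without any one tumour, with no fixed direction.

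p2ry12, the adenosine diphosphate receptor with which microglia sense injury, had 1.07, 4.26 and 9.87 CPM (lowest, median, highest) in sox10 tumours. In mitfa tumours 1 to 6 it had 9.46, 3.38, 2.45, 2.42, 8.34 and 2.48 CPM. Tumours 1 and 5 were thus near the highest sox10 tumours and the other 4 lay below the sox10 median. Between groups the log2 fold change was 0.07 ± 0.48 (adjusted p = 0.919, edgeR). With mitfa tumours 1 and 5 left out it came to 0.90 (adjusted p = 0.199), and without one tumour it lay between -0.07 and 0.38.

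The ratio of p2ry12 to mpeg1 copy A in the same tumour was higher in sox10 tumours. Between groups p2ry12 had a log2 fold change of 0.07 and copy A one of -3.87. The difference in the ratio thus mostly repeats that of copy A and does not show a rise of p2ry12. The log2 ratio averaged -0.26 ± 1.08 in sox10 tumours and -3.48 ± 2.62 in mitfa tumours (SD, n = 12 and n = 6). The difference of 3.21 is a 9.28-fold higher ratio (adjusted p = 0.00294, exact permutation). In mitfa tumours 1 to 6 the ratio was 0.55, -4.37, -4.47, -4.59, -1.30 and -6.68. Mitfa tumour 1 was above 9 of the 12 sox10 tumours, and every sox10 tumour was above tumours 2, 3, 4 and 6. Without mitfa tumour 1 the difference was 4.02, without tumour 6 it was 2.57 and without tumours 1 and 5 it was 4.77. It depended on the gene in the denominator, which was varied after the values were seen. With copy B the difference was 1.37 (adjusted p = 0.000646), and with spi1b it was 0.58 (adjusted p = 0.231).

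**Figure D2:**
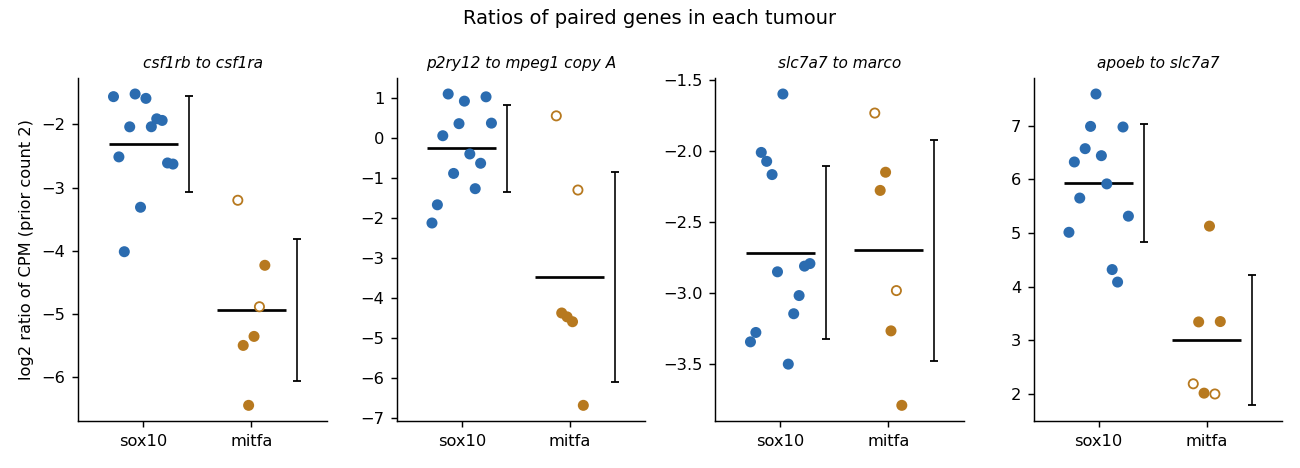
Log2 ratio of 2 genes within each tumour, from log2 CPM with a prior count of 2, sox10 tumours (n = 12) left of mitfa tumours (n = 6). Bars are means, error bars are SD and open symbols are mitfa tumours 1 and 5. The ratios csf1rb to csf1ra, p2ry12 to mpeg1 copy A and apoeb to slc7a7 are higher in sox10 tumours by 2.63, 3.21 and 2.93, and slc7a7 to marco differs by -0.02.

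apoeb, a lipid carrier that zebrafish microglia express strongly, had the largest rise of the 10. It had 204, 914 and 4720 CPM (lowest, median, highest) in sox10 tumours, a 23.2-fold range, against 96.6, 173 and 612 CPM in mitfa tumours. All 12 sox10 tumours were above the mitfa median and 8 were above the highest mitfa tumour. The lowest levels were those of sox10 tumours 9 and 10, with 204 and 219 CPM. The log2 fold change was 2.63 ± 0.73, a 6.20-fold higher level (adjusted p = 0.00655, edgeR). It lay between 2.31 and 3.17 without any one tumour. The other copy, apoea, had at most 0.324 CPM in sox10 tumours and 0.519 CPM in mitfa tumours and was too low to test.

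The ratio of apoeb to slc7a7 was higher in sox10 tumours. Between groups apoeb had a log2 fold change of 2.63 and slc7a7 one of -0.54. The difference in the ratio thus mostly repeats that of apoeb. The log2 ratio averaged 5.93 ± 1.09 in sox10 tumours and 3.003 ± 1.22 in mitfa tumours (SD, n = 12 and n = 6), a difference of 2.93 or 7.61-fold (adjusted p = 0.000646, exact permutation). Of the 12 sox10 tumours, 9 were above the highest mitfa tumour, which was tumour 4.

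Glial genes moved with apoeb between the groups. Of the 13 glial genes tested, 11 were higher in sox10 tumours and none was lower, with a median log2 fold change of 7.08. Among them S100B, the gene of a calcium-binding glial protein, had a log2 fold change of 8.27 (adjusted p = 7.78e-10). The summed levels of the glial list are given above. Within the 12 sox10 tumours, apoeb and S100B had a Pearson r of 0.10 (adjusted p = 0.777, permutation; Spearman rho -0.14, adjusted p = 0.700). No other gene of the glial list was tested against apoeb within the sox10 tumours. GFAP, also of that list, had 2331 and 1374 CPM in sox10 tumours 5 and 6, where apoeb was highest. In sox10 tumours 9 and 10, where apoeb was lowest, GFAP had 483 and 577 CPM. It was named after its values were seen. The part of glial cells in the difference of apoeb between the groups was not tested.

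**Figure D3:**
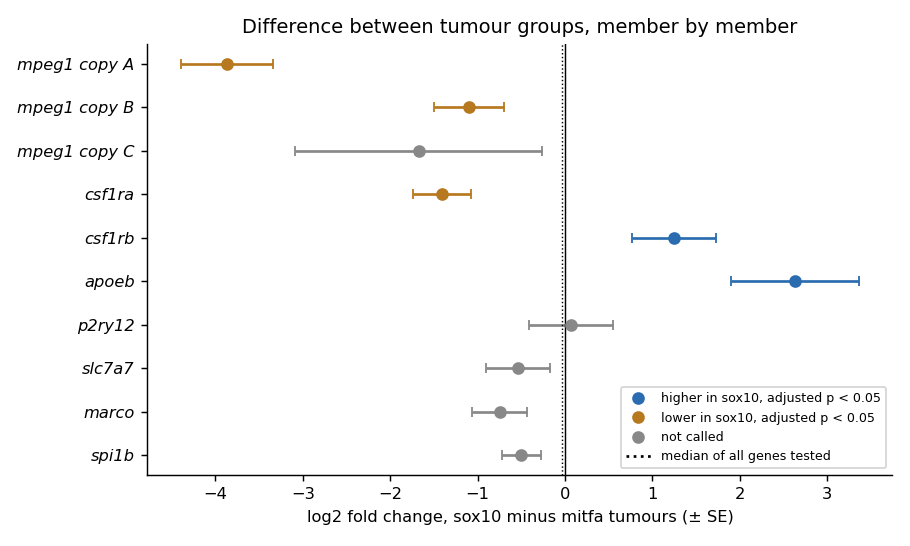
Fitted log2 fold change of each of the 10 genes, sox10 minus mitfa tumours, with error bars of 1 SE. apoeb and csf1rb lie right of 0 and passed the test, mpeg1 copies A and B and csf1ra lie left of 0 and passed, and the other 5 did not pass.

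Levels of the genes were compared with each other among the 12 sox10 tumours. All pairs below use log2 CPM, and sox10 tumours 9 and 10 count as separate samples. p2ry12 was correlated with csf1ra (Pearson r = 0.89, adjusted p = 0.00066; Spearman rho 0.87, adjusted p = 0.00473; permutation, adjusted over 11 pairs). Without the 2 tumours farthest from the median, r was 0.84 (adjusted p = 0.0473). Only 0.246% of 16251 genes had a correlation with p2ry12 as far from 0 on the same side. With apoeb r was 0.79 (adjusted p = 0.0189; rho 0.78, adjusted p = 0.0220), a level that 2.22% of genes reached. With slc7a7 it was 0.74 (adjusted p = 0.0215; rho 0.76, adjusted p = 0.0220), which 3.75% reached. Without the 2 tumours farthest from the median of apoeb, r with apoeb was 0.77, with an adjusted p of 0.0618 over these 11 pairs and 0.0479 over the 36 pairs given below. For slc7a7 it was 0.69 (adjusted p = 0.107 over the 11) without the 2 tumours farthest from the median of slc7a7, and 0.77 (adjusted p = 0.0479 over the 36) without the 2 farthest from that of p2ry12, so both calls depend on these choices.

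p2ry12 did not pass the test with spi1b (r = 0.61, adjusted p = 0.0799), csf1rb (r = 0.48, adjusted p = 0.201), mpeg1 copy A (r = 0.30, adjusted p = 0.557) or marco (r = 0.15, adjusted p = 0.696; permutation). Their Spearman coefficients were 0.62, 0.43, 0.13 and 0.16, with adjusted p of 0.102, 0.297, 0.700 and 0.700. Nor did ptprc, the CD45 gene of all leukocytes, with spi1b (r = 0.16, rho 0.20) or with mpeg1 copy A (r = 0.22, rho 0.38). No gene of the glial list was among the pairs tested with p2ry12. The glial gene GFAP had 176 and 335 CPM in sox10 tumours 1 and 2, where p2ry12 was lowest. In sox10 tumours 3 and 7, where p2ry12 was highest, GFAP had 4157 and 1984 CPM. Whether p2ry12 follows macrophage genes more closely than glial genes was not tested.

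In pairs among 9 of the genes, copy C left out for its tumours without reads, 35 of 36 had a Pearson r above 0 and 16 passed after adjustment over the 36. Of these, 9 still passed with sox10 tumours 9 and 10 summed into 1 library and 8 without the 2 tumours farthest from the median. Fewer of the 36 passed by Spearman's rho. This set of pairs was added after the values were seen, and the share of all gene pairs that would pass was not computed. For p2ry12 alone, 39.3% of genes had an r with it of at least 0.15, 16.3% of at least 0.48 and 8.89% of at least 0.61. Both mpeg1 copies A and B passed with slc7a7. Copy B was correlated with slc7a7 at r = 0.68 (adjusted p = 0.0405; rho 0.65, adjusted p = 0.0582). It was also correlated with p2ry12 (r = 0.93, rho 0.91, adjusted p = 0.00252 and 0.00504), csf1ra (r = 0.85, rho 0.84, adjusted p = 0.00720 and 0.0139), apoeb (r = 0.85, rho 0.83, adjusted p = 0.00756 and 0.0139) and spi1b (r = 0.75, rho 0.66, adjusted p = 0.0305 and 0.0528). Copy A was correlated with marco (r = 0.80, adjusted p = 0.00696; rho 0.70, adjusted p = 0.0514) and slc7a7 (r = 0.79, adjusted p = 0.0154; rho 0.52, adjusted p = 0.159), and without the 2 farthest tumours its r with marco was 0.68 (adjusted p = 0.0712). The copies had an r of 0.28 with each other (rho 0.05, adjusted p = 0.470 and 0.911). Whether the correlations of the copies differ from each other was not tested.

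**Figure D4:**
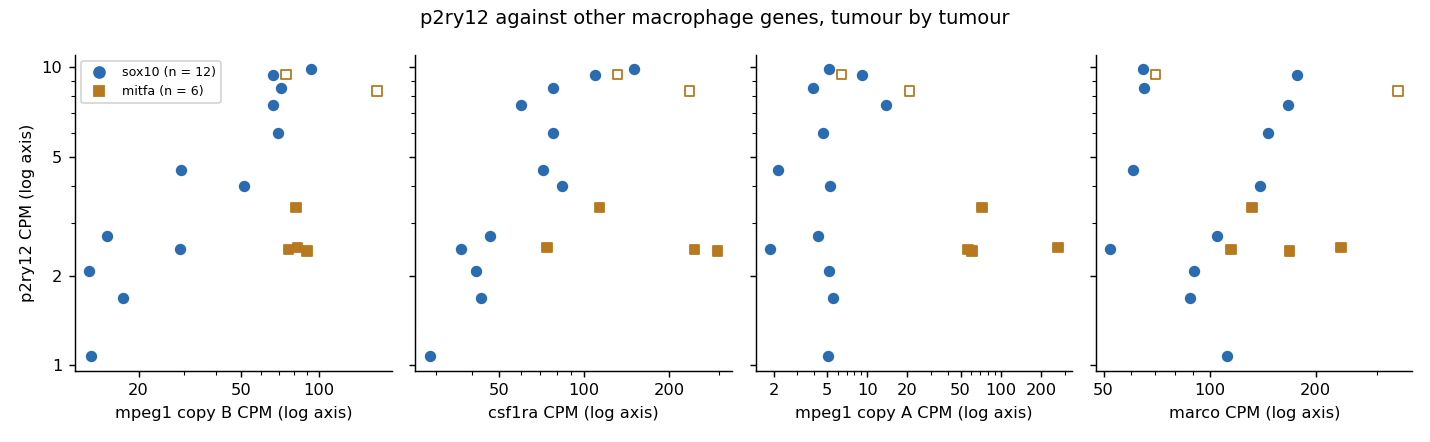
Level of p2ry12 in each tumour against that of 4 other genes of the set, in CPM on log axes. Circles are the 12 sox10 tumours and squares the 6 mitfa tumours, with open squares for mitfa tumours 1 and 5. In sox10 tumours p2ry12 is high where mpeg1 copy B (r = 0.93) and csf1ra (r = 0.89) are high, and shows no such order with mpeg1 copy A (r = 0.30) or marco (r = 0.15). Genes of the glial list are not shown.

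The genes most like each of 4 members over the 12 sox10 tumours were found among 16252 genes by the Pearson r of log2 CPM. For p2ry12 the 5 closest were nes, an intermediate filament gene of neural progenitors (r = 0.95), RCBTB1 (r = 0.94), GJB1, a connexin gene of myelinating glia (r = 0.93), and 2 genes that have only clone names (r = 0.94 each). For csf1ra they were tlr21, a toll-like receptor gene, ARHGEF25, ACOT8 and mhc2d4b, with r of 0.92, 0.92, 0.91 and 0.91, and 1 gene with only a clone name (r = 0.92). For apoeb they were LIN7A, FABP2, a fatty acid binding protein gene, and HK2, a hexokinase gene, with r of 0.94, 0.93 and 0.93, and 2 genes with only clone or locus names (r = 0.94 and 0.93). For marco they were enpp1, SLC16A9, trim35-10, ppp1r18 and CALHM6, with r of 0.97, 0.95, 0.94, 0.94 and 0.94. With 12 tumours and this many genes, such values are a description of these libraries. No member was among the 5 genes closest to another of these 4.

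Further microglia markers did not move as one group. Of 15 genes listed besides the 10 described, 14 were tested. In sox10 tumours 3 rose and 5 fell, and the median log2 fold change was -0.21. Of all genes tested 21.5% were higher and 22.4% lower, so the share that rose is near the background. Their sum ran from 223 to 1122 CPM (median 656) in sox10 tumours and from 357 to 626 CPM (median 481) in mitfa tumours. apoc1, an apolipoprotein gene expressed in zebrafish microglia, had 19.3, 162 and 555 CPM (lowest, median, highest) in sox10 tumours, against 0.544, 2.51 and 36.3 CPM in mitfa tumours (log2 fold change 4.52 ± 0.99, adjusted p = 0.00109, and 6.27 without mitfa tumour 1). ITGB5, an integrin subunit, was higher in every sox10 tumour (35.9 to 303 CPM) than in any mitfa tumour (9.65 to 35.1 CPM), though by a narrow gap. Its log2 fold change was 2.47 ± 0.50 (adjusted p = 0.000589). SALL1 (ENSDARG00000074319), a factor of microglia identity in mice, had 4.18 ± 0.89 (adjusted p = 0.000863, and 5.12 without mitfa tumour 4). A second SALL1 copy (ENSDARG00000075891) had a median of 81.0 CPM in sox10 tumours and 0.919 CPM in mitfa tumours, of which tumour 1 had 124 CPM. It was not called (log2 fold change 1.88 ± 1.03, adjusted p = 0.149, edgeR) and was named after its values were seen. Neither ITGB5 nor SALL1 is limited to microglia.

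In the other direction, tmem119b, a copy of a microglia marker of mammals, had 0.481 to 3.78 CPM in sox10 tumours and 4.50 to 143 CPM in mitfa tumours (log2 fold change -4.55 ± 0.60, adjusted p = 6.12e-06, and -3.26 without mitfa tumour 3). P2RY13, a receptor related to p2ry12, had a median of 0.504 CPM in sox10 tumours and 5.06 CPM in mitfa tumours (-3.74 ± 0.77, adjusted p = 0.00066). It was named after its values were seen. P2RY1, another receptor of this family that many cell types use, had 78.4 to 321 CPM in sox10 tumours and 2.31 to 6.48 CPM in mitfa tumours (5.35 ± 0.38, adjusted p = 2.89e-09).

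**Figure D5:**
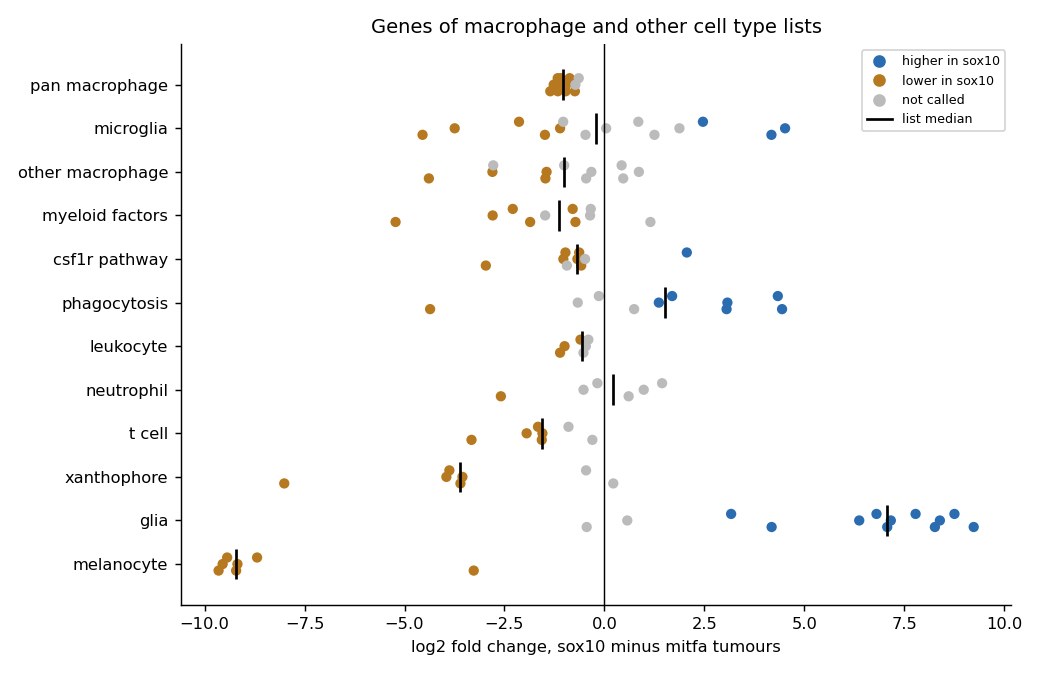
Fitted log2 fold change, sox10 minus mitfa tumours, of each tested gene of the marker lists, 1 row per list, with called genes in colour, genes not called in grey and list medians as black bars. Microglia genes lie on both sides of 0 (3 higher, 5 lower of 14), genes shared by macrophages lie mostly left of it (10 lower of 12), and glial and melanocyte genes lie far to the right and left.

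Genes of macrophages elsewhere in the body and of all macrophages were lower in sox10 tumours where they were called. Over all genes tested the share called lower was 22.4%. Of 11 genes listed for other macrophages, 4 were lower, none was higher and the median log2 fold change was -1.01. f13a1b, a coagulation factor gene of resident macrophages, had -2.80 ± 0.52 (adjusted p = 0.000224), il1b, the cytokine interleukin 1 beta, -4.39 ± 1.04 (adjusted p = 0.00203) and ARG2, an arginase gene, -1.47 ± 0.37 (adjusted p = 0.00313). Without mitfa tumour 3 f13a1b had -1.63 and il1b -3.42, and without sox10 tumour 3 il1b had -5.46. In mitfa tumours 1 to 6 il1b had 3.11, 17.3, 504, 165, 2.25 and 185 CPM, against 0.832 to 46.7 CPM in sox10 tumours. ARG2 was not called without mitfa tumours 1 and 5 (-0.64, adjusted p = 0.161). Their sum had a median of 320 CPM in sox10 tumours and 462 CPM in mitfa tumours, with ranges of 251 to 460 CPM and 229 to 1459 CPM. Much of the sox10 sum was timd4, a receptor for dying cells named after its values were seen, with a median of 211 CPM in sox10 tumours and 1.06 CPM in mitfa tumours. It was not called with all tumours (0.47, adjusted p = 0.763) and was higher in sox10 tumours without mitfa tumour 5 (7.67, adjusted p = 5.93e-11). Of 12 tested genes that macrophages share, 10 were lower, none was higher and the median log2 fold change was -1.03. LGMN, a lysosomal protease gene, had a log2 fold change of -1.27 ± 0.27 (adjusted p = 0.000822) and NCF1, a subunit of the phagocyte oxidase, -1.35 ± 0.31 (adjusted p = 0.00162). The number of these 12 genes called lower fell to 1 with a covariate for the share of reads outside genes. It also fell to 1 with a leukocyte score, the mean log2 CPM of general leukocyte genes, as a covariate. Macrophages are leukocytes, so this score can carry their number too, and a fit with it cannot test whether macrophage genes differ. That limit holds for every value given with the score.

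Of the lists for other leukocytes, general leukocyte and T cell genes were lower in sox10 tumours where called. The 6 general leukocyte genes summed to 211, 315 and 538 CPM (lowest, median, highest) in sox10 tumours and 425, 518 and 774 CPM in mitfa tumours, and 3 of them were lower and none higher, with a median log2 fold change of -0.56. ptprc had 38.4 to 132 CPM in sox10 tumours and 133 to 197 CPM in mitfa tumours (-1.11 ± 0.22, adjusted p = 0.00049), rac2, a GTPase of blood cells, had -0.995 ± 0.24 (adjusted p = 0.00233) and CORO1A, an actin-binding protein gene, -0.60 ± 0.20 (adjusted p = 0.0219), a call lost without mitfa tumour 5 or 6. Of 7 T cell genes 5 were lower and none higher (median -1.57), among them cd28 (-3.32), cd4-1 (-1.94) and lck (-1.55). Of 6 neutrophil genes 1, cxcr1 (-2.59), was lower and none was higher (median 0.22). The share of reads outside annotated genes was 11.1% to 17.4% in sox10 tumours and 9.46% to 12.8% in mitfa tumours. Its medians were 14.4% and 10.2%, so this covariate follows the groups in part. A fit with it cannot fully separate it from the plasmid. With that covariate csf1rb had a log2 fold change of 0.56 (adjusted p = 0.583), apoeb 2.16 (adjusted p = 0.0529) and mpeg1 copy B -1.15 (adjusted p = 0.186), and with a leukocyte score as a covariate they had 1.15 (adjusted p = 0.215), 2.22 (adjusted p = 0.0756) and -1.06 (adjusted p = 0.205). csf1ra and mpeg1 copy A still passed in both.

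Set side by side, the members used as microglia markers were split in their calls. apoeb was higher in sox10 tumours, a call lost with either covariate, and slc7a7 and p2ry12 were not called. The receptor copy csf1rb, needed with csf1ra for microglia, was higher with a call that 9 single tumours decided and that either covariate ended. csf1ra, the receptor copy shared by microglia and other macrophages, was lower. Of the markers of macrophages at large, mpeg1 copies A and B were lower in sox10 tumours and marco and spi1b did not pass. The call of copy B was lost with either covariate and without some single tumours. The leukocyte score can carry macrophage number, and the share of reads outside genes was higher in sox10 tumours. A call lost with either covariate therefore does not show that the groups were alike. Counts from whole tumours do not say in which cells a transcript was, so cell types named as holding these genes were not tested.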

How the data were processed

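Per the labels' protocols, RNA came from entire tumours by Trizol extraction. STAR, Trimmomatic, FastQC, DESeq2 and GRCz10 are listed with no versions or roles, per the submitters' processing notes. The strand setting is not given in the sources used here, nor is the annotation release. A table of raw read counts was deposited by the authors, with 27057 Ensembl genes and 18 libraries. Its 4 rows that name no gene held 19.9% to 30.1% of reads per library and stayed out of library sizes and tests. Gene names came from a reference table that named 24020 of the genes.

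Genes were filtered with filterByExpr (count minimum 10, total minimum 15). With TMM scaling, edgeR 4.0.16 (R 4.3.3) fitted all 18 tumours and gave quasi-likelihood F tests, with Benjamini-Hochberg adjustment over the 18731 genes left and a threshold of 0.05. Standard errors are the log2 fold change over the root of F. CPM are the counts scaled here with TMM factors. Ratios and correlations used log2 CPM with a prior count of 2. Ratios were tested by exact permutation over all splits into 12 and 6, correlations by permutation with 100000 resamples (scipy 1.17.1). The test scripts were tested on simulated data.

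The members and lists were chosen with earlier results of these data known. List names matched exactly, then ignoring case, then without the final copy letter or number, and names with over 3 identifiers were left out. Named genes are all members, up to 3 called genes per list with the smallest adjusted p, list genes called against the list's majority, the ligands csf1a, csf1b and il34, and the 5 genes most correlated with each of 4 members. Some of these are not reported here. Replicate numbers of the groups do not pair the tumours, so the fit has no block. Alternatives were DESeq2 1.42.0, limma 3.58.1 with sample quality weights, RLE and upper quartile factors, a filter of 1 count in all or of 5 CPM in 6 tumours, a prior count of 0.5, a replicate block, covariates and tumours left out or summed. Sequences and coordinates are not used here.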

Additional observations from a re-analysis of the deposited data

Results flagged for a closer look

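In the 6 mitfa tumours, single tumours stood far from the other 5 for 14 of 67 quantities examined, with a gap to the nearest tumour above Dixon's critical share of the group's range. The chance rate of about 1 in 20 holds for normally distributed values. The gaps of the genes below were taken on CPM without logs, so the number flagged cannot be set against that rate. Among the macrophage and microglia genes, mpeg1 copy A had 267 CPM in tumour 6, mpeg1 copy B had 169 CPM in tumour 5 and apoeb had 612 CPM in tumour 4. Tumour 3 held the highest levels of csf1a (39.7 CPM), f13a1b (833 CPM), il1b (504 CPM), tmem119b (143 CPM) and BCO1 (19.5 CPM). Tumour 5 held those of timd4 (856 CPM) and tyro3 (2.86 CPM). Tumour 4 held those of SALL1 ENSDARG00000074319 (2.02 CPM) and LRP1B ENSDARG00000004789 (1.499 CPM). Tumour 1 held that of apoc1 (36.3 CPM) and tumour 2 that of SLC7A10 ENSDARG00000051730 (0.545 CPM).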

How the results depend on the processing

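All members except p2ry12 and marco kept their direction in every alternative in which they were tested. Of the members called, csf1ra and mpeg1 copy A also kept their call in every alternative. Of the 10 genes, 2 were called higher, and 1 to 2 without any one tumour, 1 with a replicate block and 0 with either covariate. 3 were called lower, and 2 to 4 without any one tumour. Over all genes tested, 2432 were called higher and 2489 lower with the covariate for reads outside genes. With the leukocyte score these were 2492 and 2422, against 4024 and 4190 without a covariate. With a covariate for the share of reads outside genes p2ry12 had a log2 fold change of -0.093, and it had -0.069 to 0.38 without any one tumour. With the leukocyte score as a covariate marco had 0.068 and CORO1A 0.0027, while mpeg1 copy C was called (-6.70, adjusted p = 0.0429). CORO1A is itself one of the genes in that score, so its value there is drawn towards 0 by construction. The same-numbered tumours had correlations of deviations of -0.31 to 0.17 and none matched its own number best, so they share only a number. With the replicate block 2660 genes were called higher and 2109 lower, against 4024 and 4190 without it. Numbers 7 to 12 are found only among sox10 tumours, so with the block those tumours add nothing to the group difference. The block fit thus set sox10 tumours 1 to 6 against the mitfa tumours. Sox10 tumour 7, the highest in csf1rb and mpeg1 copy B, had no part in it. The block fit did not call csf1rb (1.04, adjusted p = 0.0581) or mpeg1 copy B (-1.13, adjusted p = 0.0676). With it, 5 microglia genes were called higher and 2 lower, 1 gene of other macrophages higher and 1 lower, 6 genes shared by macrophages lower, 3 myeloid factor genes lower and 0 genes of the receptor's ligands and signalling lower, PIK3CG (adjusted p = 0.0837) included. Without mitfa tumours 1 and 5 these counts were 5 and 3 for microglia genes, 1 higher for other macrophages and 6 lower for shared genes. limma called 5 microglia genes higher and 3 lower, and 1 gene of other macrophages higher. The strict filter left 2 microglia genes lower. The covariate for reads outside genes gave 3 microglia, 0 other and 1 shared gene lower, and the leukocyte score 3 microglia and 1 shared gene lower. Without any one tumour, 3 to 5 microglia genes were higher and 3 to 6 lower, 0 to 1 genes of other macrophages higher and 3 to 5 lower, and 7 to 12 shared genes lower. The log2 ratio of slc7a7 to marco was 0.018 with sox10 tumours 9 and 10 summed, 0.16 without mitfa tumours 1 and 5, and -0.23 to 0.18 without any one tumour. The other ratios kept their call except p2ry12 against spi1b, at 0.58. Without the 2 tumours farthest from the median of the first gene named, r was 0.77 for apoeb and 0.69 for slc7a7 with p2ry12, and -0.38 for csf1ra with slc2a11b, for which it was -0.66 with sox10 tumours 9 and 10 summed. The cause was not tested in any of these. mpeg1 copy C had 0 reads in 6 tumours, where depth sets the limit, and up to 340 reads in others.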

Other observations

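timd4 had 120, 211 and 314 CPM (lowest, median, highest) in sox10 tumours. In mitfa tumours it had 0.728 to 1.09 CPM in 5 and 856 CPM in tumour 5.

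Of 10 genes listed for the uptake of dying cells, 6 were higher and 1 was lower in sox10 tumours, with a median log2 fold change of 1.53. tyro3, a receptor kinase for dying cells, was higher (log2 fold change 4.34 ± 0.60, adjusted p = 1.04e-05, and 5.15 without mitfa tumour 5), as was ADGRB1 ENSDARG00000078529 (4.45 ± 0.83, adjusted p = 0.000244, and 5.17 without mitfa tumour 5), a receptor also made by neural cells. MFGE8, a bridging protein that coats dying cells, was lower (-4.36 ± 0.49, adjusted p = 9.72e-07). Among 7 tested lipid transport genes 2 were higher and 1 lower (median -0.50). ABCG1, a cholesterol exporter, was lower (-4.57, adjusted p = 0.000462), but not called without mitfa tumours 1 and 5 (-1.99, adjusted p = 0.0716). NR1H3, a sterol-sensing nuclear receptor, was higher (0.62, adjusted p = 0.0188), and LRP1B ENSDARG00000004789 too (1.82, adjusted p = 0.0483), a call that 12 single tumours decided.

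Relatives of the members moved in both directions. Of 13 tested genes of the slc7 family and its partners, 4 were higher and 2 lower (median 0.43). SLC3A1 (2.04), SLC7A10 ENSDARG00000051730 (3.73) and SLC7A14 (2.44) were higher, while SLC7A8 (-0.93, lost without mitfa tumour 5) and SLC7A10 ENSDARG00000008100 (-1.26) were lower. Of 4 tested P2Y receptors besides those of the microglia list, 1 was higher (P2RY1) and 1 lower (P2RY8, -1.63, adjusted p = 0.00164), with a median of -0.68. Of 7 scavenger receptor genes 2 were higher and 1 lower (median -0.30), with COLEC12, a collectin, at -2.07 (adjusted p = 2.76e-05), CD36 at 3.08 (adjusted p = 0.0145, and 0.0604 without mitfa tumours 1 and 5) and scarb2a at 1.44 (adjusted p = 0.0374, lost without any one of 7 tumours). The 7 tested melanocyte genes were all lower in sox10 tumours (median -9.21), among them pmela (-9.65), TYRP1 ENSDARG00000056151 (-9.55) and TYR (-9.44).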
